A study of Mus musculus with 145 samples.

Results

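Dorsal skin taken 6 h after exposure to 20 mJ/cm2 of ultraviolet light was compared with dorsal skin taken 6 h after sham handling, over all genes that could be tested. The comparison holds 10 of the 145 libraries of the series, 5 from mice given 20 mJ/cm2 and 5 from sham-handled mice. The light came from 8 lamps of 100 W in a tanning canopy, with 96.4% UVA and 3.6% UVB. Animals were assigned to dose and time at random, and the titles number each animal, so that every library is 1 mouse. Mice given 20 mJ/cm2 or sham and taken at 24 h (5 each) were used only to place the response at 20 mJ/cm2. Mice given 5, 10 or 40 mJ/cm2 and taken at 6 h (5 per dose) served to place it too. Their libraries also entered the fit behind the main comparison, which took 1 estimate of spread from all 25 libraries at 6 h. The sources used here name no strain, sex or age of the mice. Poly(A) RNA was read as single reads of 75 bases, and levels are given as CPM, the counts of a gene per 1000000 counts on scaled library sizes.

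Ultraviolet light forms pyrimidine dimers in DNA, which block transcription and replication and are removed by nucleotide excision repair. DNA damage stabilises p53, a transcription factor whose targets halt the cell cycle (Cdkn1a), feed back on p53 itself (Mdm2) or promote cell death (Pmaip1, Tnfrsf10b). Epidermis under stress changes its programme of terminal differentiation: it makes the keratins of wounded skin and the small proline-rich (Sprr) proteins, which are cross-linked into the cornified envelope, the protein shell of the outermost cells. Ligands of the epidermal growth factor (EGF) receptor and cytokines pass signals between keratinocytes and to immune cells.

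The 20 mJ/cm2 libraries held 7.53 to 12.2 M counts (M, 1000000) and the sham libraries 6.86 to 23 M. Markers of keratinocytes, fibroblasts and skeletal muscle were abundant in both groups, as whole dorsal skin with its muscle layer would hold: the 12 keratinocyte markers summed to 7454 to 18264 CPM at 20 mJ/cm2 and 7350 to 13121 CPM in sham skin, and the 21 muscle markers to 37354 to 75003 CPM and 36048 to 69067 CPM in the same order of groups. Replicate 4 of each group stood apart in its share of counts from the mitochondrial genome, 13.4% at 20 mJ/cm2 and 13.5% in sham, against 3.64 to 8.27% and 4.44 to 6.44% in the other libraries of the 2 groups. At 10 mJ/cm2, replicate 5 held only 0.18 M counts and bears on every comparison with that dose. Through the shared fit of all libraries at 6 h it also bears on 20 mJ/cm2 against sham.

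At 20 mJ/cm2, 30 genes rose and 51 fell among 18677 tested, so that 81 genes, or 0.434% of those tested, were called at an adjusted p under 0.05 (edgeR quasi-likelihood test, two-sided). The rises were 0.161% and the falls 0.273% of all genes. The rises included cornified envelope genes (Sprr2, Sprr1a, Sprr1b and Rptn), the EGF receptor ligand Epgn, the thyroid hormone deiodinase Dio2 and 2 death-promoting p53 targets, Pmaip1 and Tnfrsf10b. The falls included the ion exchanger Slc24a3, the microfibril protein Thsd4, the collagen IV chain Col4a6, the adhesion receptor Adgrl3 and the calcium channel Cacna1e, which had the largest falls among called genes averaging a log2 CPM of 1 or more. At lower levels Mei4 and Cadps fell further. Most genes that fell span a long stretch of the genome. Changes of 2-fold or more made up 21 of the 30 rises and 39 of the 51 falls. The median log2 fold change over all genes was 0.02, and the median standard error (SE) of a gene's log2 fold change was 0.31.

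These calls were sensitive to single libraries. Over the 10 fits that left out 1 library of the 2 groups, 7 of the 30 rises and 9 of the 51 falls were called in all 10. The count of called genes was 32, 28, 24, 98 and 70 without replicates 1 to 5 of the 20 mJ/cm2 group. It was 30, 20, 27, 41 and 22 without sham replicates 1 to 5. Without both libraries above 10% mitochondrial counts, an alternative chosen after seeing the data, it was 44. Libraries of the other doses at 6 h bear on the count through the shared fit. Without the 10 mJ/cm2 library of 0.18 M counts 138 genes were called, with all of the 81 among them. In the 10 libraries of the 2 groups alone 29 were called, 23 of them among the 81. In the libraries whose titles end in R1_001 (3 per group) 50 genes were called, and in those ending in R1 (2 per group) none was called by edgeR, with 227 genes at an unadjusted p under 0.05. The values of the 20 mJ/cm2 and sham libraries did not overlap for 25 of the 30 rises and 50 of the 51 falls, against 557 of all 18677 genes (2.98%); the called genes were chosen for their difference in these same libraries.

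Genes of the cornified envelope were among the largest rises. They belong to a list of stressed epidermis that also holds stress keratins and genes such as Gjb2, Klk6, Stfa1 and S100a9. Of 39 tested genes of this list, 8 were called up and none down. A positive fold change was seen in 34 and a negative one in 5, S100a9 among them (-1.14 ± 0.65, adjusted p = 0.672 by edgeR). The median log2 fold change was 1.96, against 0.02 over all genes. The list was drawn up with earlier results of these data known, so these counts describe it and give no independent support. Because the filter was run over all groups of the series, it kept members near 0 in both groups. Lce3a, for example, averaged 0.0264 CPM at 20 mJ/cm2 and 0 in sham skin. Sprr2h had 8.86, 25.4, 17.5, 7.23 and 13.1 CPM in the 20 mJ/cm2 libraries, against 0.926, 1.09, 0.132, 0.458 and 1.2 CPM in the sham libraries. No sham library came near the lowest 20 mJ/cm2 library, and the log2 fold change was 4.14 ± 0.53 (SE, n = 5 each, adjusted p = 8.64e-04). Sprr1a, a more abundant envelope precursor, had 92, 206, 136, 55.4 and 104 CPM at 20 mJ/cm2, against 34.9, 20.9, 21.8, 41.9 and 28.8 CPM in sham skin. Its groups did not overlap either, at a log2 fold change of 1.99 ± 0.33 (adjusted p = 0.00554), and both genes were called in every fit without 1 library.

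Sprr1b had 30.5, 90.7, 39.6, 16.2 and 29.3 CPM at 20 mJ/cm2, against 5.29, 0.95, 5.26, 5.56 and 3.5 CPM in sham skin (log2 fold change 3.34 ± 0.66, adjusted p = 0.0233). Rptn, which encodes repetin, an S100-fused envelope protein, had 3.04, 45.5, 10.3, 3.45 and 5.13 CPM at 20 mJ/cm2, against 0.397, 1.49, 1.58, 0.785 and 1.58 CPM in sham skin (3.58 ± 0.79, adjusted p = 0.0384). Every 20 mJ/cm2 library was above every sham library for both genes, but the calls were lost in 5 (Sprr1b) and 7 (Rptn) of the 10 fits without 1 library, and a single 20 mJ/cm2 library held most of the Rptn counts. Sprr2d, Sprr2f, Sprr2g and Sprr2i were also called, with log2 fold changes of 4.95 ± 0.71, 5.05 ± 0.88, 4.89 ± 0.73 and 4.11 ± 0.81 at low levels. Sprr2i, the lowest, had 0.264 to 1.07 CPM at 20 mJ/cm2 and 0 to 0.132 CPM in sham skin.

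The Sprr2 genes are near-identical copies, and the expected counts divide reads among them by estimate, so a single copy's value is uncertain. Summed over 11 copies, Sprr2 had 26.2, 84.6, 51.8, 17.4 and 45.2 CPM at 20 mJ/cm2, against 10.8, 20.5, 38.5, 4.32 and 7.9 CPM in sham skin. The sums overlapped, because sham replicates 2 and 3 exceeded the lowest 20 mJ/cm2 library. Most of the sum in these 2 sham libraries was assigned to 1 copy, Sprr2a2, with 18.5 and 34.9 CPM. Sprr2a2 had 4.64 to 42 CPM at 20 mJ/cm2 and was not called (log2 fold change 0.08 ± 0.61). Across the whole Sprr family, 15 of 17 genes were tested, 7 were called up and 13 had a positive fold change. Of the exceptions, Sprr2a1 had 0 CPM in all 5 libraries of 20 mJ/cm2 and in 4 of the 5 sham libraries, with 2.89 CPM in sham replicate 3, so no fold is given.

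Keratins of wounded epidermis were not called, and their differences varied in size. Krt6b had 45.2, 68.7, 74.8, 10.5 and 128 CPM at 20 mJ/cm2, against 4.76, 2.58, 2.63, 13.4 and 1.54 CPM in sham skin (log2 fold change 3.97 ± 0.93, adjusted p = 0.0553). Replicate 4 of the 20 mJ/cm2 group lay below sham replicate 4, and those are the 2 libraries with the high mitochondrial share; whether the share plays a part in this overlap was not tested. Krt16 had 12.3 to 245 CPM at 20 mJ/cm2 and 5.84 to 26.8 CPM in sham skin (2.96 ± 0.72, adjusted p = 0.0726), and Krt6a had 58.9 to 341 and 55.7 to 77.7 CPM in the same order (1.52 ± 0.38, adjusted p = 0.0762). Krt17, another keratin of stressed epidermis, had 18.8 to 244 CPM and 26.9 to 217 CPM with full overlap (0.21 ± 0.54, adjusted p = 0.994). Stfa1, a cysteine protease inhibitor of the stefin A cluster on chromosome 16, had a log2 fold change of 1.96 ± 0.46 (adjusted p = 0.0553). BC117090, also on chromosome 16, was called up at a low level (4.21 ± 0.94, adjusted p = 0.0397). It averaged 1.5 CPM at 20 mJ/cm2 and 0.106 CPM in sham skin, and the call was lost in 7 of 10 fits without 1 library. The number of called members of the list was 9 without the libraries of high mitochondrial share, 5 to 13 over the fits without 1 library and 0 in the libraries ending in R1 alone.

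**Figure D1:**
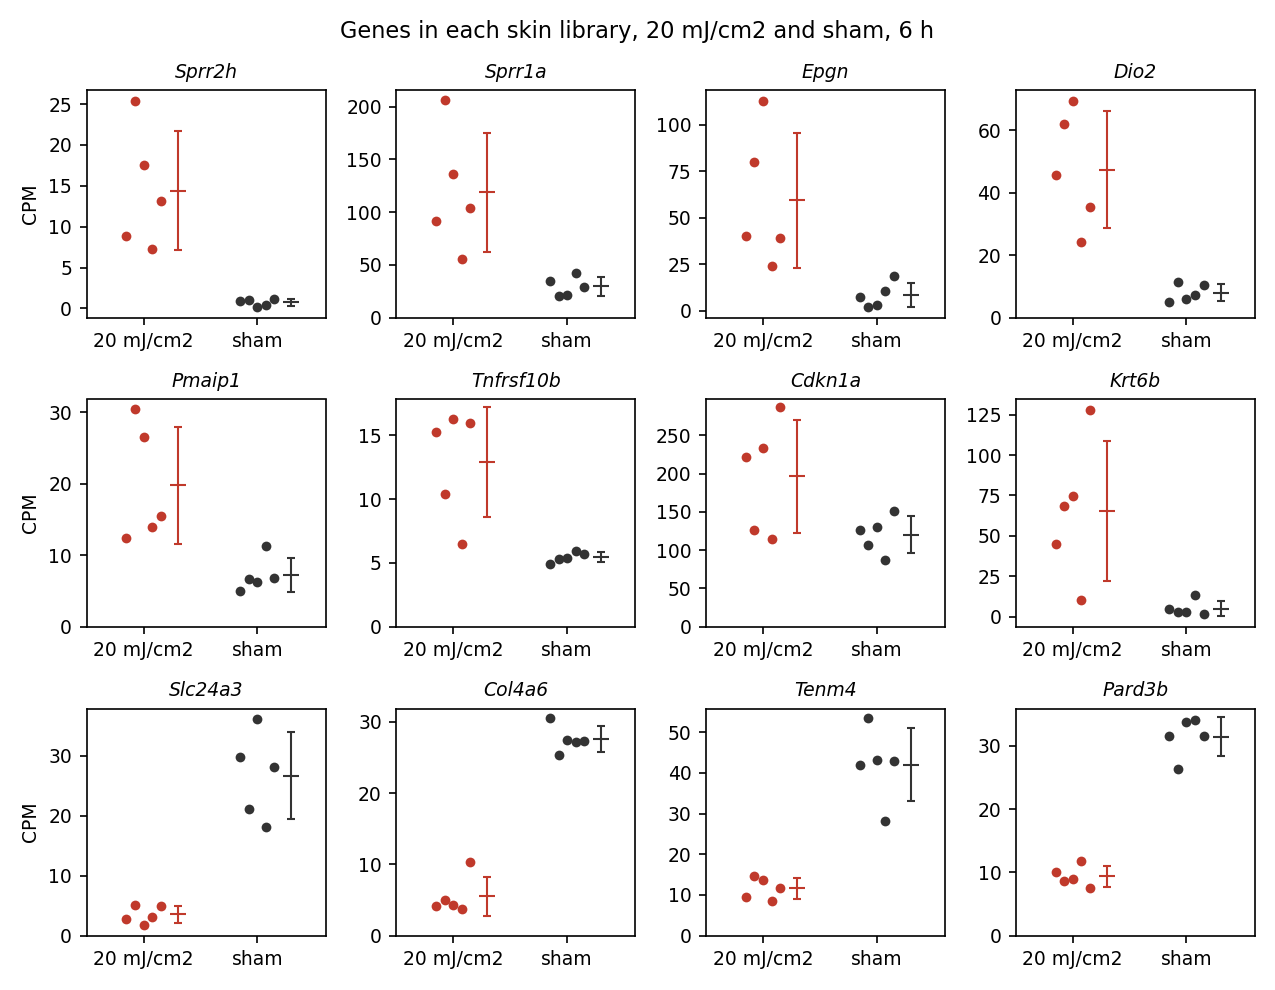
Level (CPM, linear vertical axis, each panel on its own scale) of 12 genes in the 5 libraries of 20 mJ/cm2 (red, left) and the 5 sham libraries (black, right) at 6 h. Points are single libraries, and the bar beside them is the mean with the SD. For Sprr2h, Sprr1a, Epgn and Dio2 every 20 mJ/cm2 library is above every sham library, for Slc24a3, Col4a6, Tenm4 and Pard3b every one is below, and for Cdkn1a and Krt6b the groups overlap.

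The start sites of the called Sprr genes other than Sprr2g and of Rptn, all on chromosome 3, were looked at for the letters TGANTCA. These are the core to which AP-1 (Fos and Jun dimers) binds, chosen since AP-1 is known to drive Sprr genes in keratinocytes. Sprr2g, also called, had no start site among those available. The windows ran from 250 bases before to 50 bases after the start in RefSeq on GRCm38.p6, and the motif is its own reverse complement, so that both strands are covered. It occurred in 10 of 22 windows of the genes called up (45.5%, 20 of 30 genes matched), in 3 of 58 windows of the genes called down (5.17%, 42 of 51 genes matched) and in 2565 of all 32851 windows (7.81%), or 5.93% of those of tested genes. Most of the matched windows of the genes called up belong to Sprr genes, which are related copies and not independent of each other. Rptn, Cyp3a13, Fam180a and Tnfrsf9 held the others. Of the Sprr family, 9 of 14 windows held it (64.3%). The letters TATAAA, searched on both strands, occurred in 10 of the 14 Sprr windows (71.4%) and in 13.6% of all windows. Stretches of 27 bases around the match are given 5′ to 3′ on the strand of the gene, with the motif in capitals. The match reads TGAGTCA in all but Sprr1b (TGAATCA), and the surrounding bases differ between most of the genes:
Sprr1a (chr3:92485981-92486007, minus strand): gggaggagggTGAGTCAtaggtgactg
Sprr1b (chr3:92438874-92438900, minus strand): gcacctaggaTGAATCAtgtctgacag
Sprr2d (chr3:92338937-92338963, plus strand): gagtgctcacTGAGTCAcaggtctcaa
Sprr2f (chr3:92364980-92365006, plus strand): aactgaatatTGAGTCAcagtgctcaa
Sprr2h (chr3:92385477-92385503, plus strand): ggatggtctcTGAGTCActgcacttta
Sprr2i (chr3:92407788-92407814, plus strand): aagggctcacTGAGTCAcaggactgaa
Counted from the start, the match began at -116 and, for another copy, at -146 in Sprr1a, and at -111 in Sprr1b. In these Sprr2 genes it lay farther upstream, between -193 (Sprr2d, Sprr2i) and -198 (Sprr2h). A match describes the sequence only and does not show that a factor is bound.

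The whole windows of 3 of these genes, again with each match in capitals, are given because Sprr2h and Rptn had the largest rises among the better expressed called genes (log2 CPM averaging 1 or more), because Sprr1a was the most abundant of the called Sprr genes, and because they place the motif relative to the start, which lies 50 bases before the 3′ end of each:
Sprr2h (chr3:92385435-92385734, plus strand): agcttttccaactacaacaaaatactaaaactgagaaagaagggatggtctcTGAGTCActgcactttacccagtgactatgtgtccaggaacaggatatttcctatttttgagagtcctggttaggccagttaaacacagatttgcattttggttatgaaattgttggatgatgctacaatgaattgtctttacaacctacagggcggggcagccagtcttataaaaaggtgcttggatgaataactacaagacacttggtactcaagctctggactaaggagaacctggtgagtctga
Sprr1a (chr3:92485832-92486131, minus strand): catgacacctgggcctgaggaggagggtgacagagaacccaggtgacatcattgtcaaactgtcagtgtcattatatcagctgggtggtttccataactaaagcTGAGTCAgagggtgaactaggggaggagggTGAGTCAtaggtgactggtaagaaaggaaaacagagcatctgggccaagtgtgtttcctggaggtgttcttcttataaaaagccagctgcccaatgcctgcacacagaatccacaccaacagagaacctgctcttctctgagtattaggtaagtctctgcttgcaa
Rptn (chr3:93393449-93393748, plus strand): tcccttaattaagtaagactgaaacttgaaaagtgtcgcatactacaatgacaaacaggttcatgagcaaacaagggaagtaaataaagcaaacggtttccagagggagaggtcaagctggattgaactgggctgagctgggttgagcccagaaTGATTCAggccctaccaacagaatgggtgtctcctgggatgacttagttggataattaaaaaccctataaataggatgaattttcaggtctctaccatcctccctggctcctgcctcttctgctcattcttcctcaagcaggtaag
The Sprr1a window has 2 matches, and those of Sprr2h and Rptn have 1 each, at -96 in Rptn. Among other genes called up, Cyp3a13 held 2 matches, at -91 and -6, Fam180a 1 at -48 and Tnfrsf9 1 at -15, and the window of Dio2 held none.

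Signalling genes outside the list of stressed epidermis rose in small number. Epgn, whose product epigen activates the EGF receptor, had 40.2, 80.3, 113, 24.2 and 39.4 CPM at 20 mJ/cm2, against 7.67, 2.17, 3.42, 10.9 and 18.7 CPM in sham skin. The groups did not overlap, and the log2 fold change was 2.86 ± 0.52 (adjusted p = 0.0123). It was the only called gene of 17 EGF receptor ligands and feedback genes, whose median was 0.14. The ligands Hbegf (0.57), Ereg (0.69), Areg (0.29) and Tgfa (0.14) had smaller log2 fold changes and were not called, and Btc had -1.25 ± 0.58 (adjusted p = 0.517). The Epgn call was lost without sham replicate 2 and without sham replicate 3.

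Dio2, the enzyme that turns the prohormone thyroxine into active triiodothyronine inside cells, had 45.6, 62.2, 69.6, 24.2 and 35.5 CPM at 20 mJ/cm2, against 5.16, 11.5, 5.92, 7.13 and 10.5 CPM in sham skin. The lowest library of 20 mJ/cm2 was well above the highest sham library, and the gene was called in every fit without 1 library (log2 fold change 2.59 ± 0.36, adjusted p = 0.00143). It was the only called gene among 16 tested genes of the thyroid hormone, vitamin D and retinoid list.

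Among cytokines and chemokines 1 of 36 tested genes was called, with a median log2 fold change of 0.47. This was Cxcl16, a membrane-bound chemokine for CXCR6 on T cells, with 22 to 47.5 CPM at 20 mJ/cm2 and 13.4 to 22.1 CPM in sham skin (0.95 ± 0.21, adjusted p = 0.0415, lost in 9 of 10 fits without 1 library). The groups met at their edges, where the lowest 20 mJ/cm2 library was just below the highest sham library. Il6 had 0.54 to 10.3 CPM at 20 mJ/cm2 and 0.397 to 5.95 CPM in sham skin, with full overlap (1.33 ± 0.80, adjusted p = 0.706). Ptgs2, the inducible cyclooxygenase of prostaglandin synthesis, had 8.59 to 51.6 CPM and 4.62 to 52.2 CPM in the same order (0.75 ± 0.54, adjusted p = 0.793). Il1rn, the interleukin-1 receptor antagonist, had a log2 fold change of 0.68 ± 0.20 (adjusted p = 0.158).

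Of 42 p53 targets, 2 were called up and none down, and 33 had a positive fold change, with a median of 0.38. By edgeR 12 of them had an unadjusted p under 0.05, all higher at 20 mJ/cm2, against 1681 of all 18677 genes in either direction. Pmaip1, which encodes the death-promoting BH3-only protein Noxa, had 12.4, 30.5, 26.6, 14 and 15.5 CPM at 20 mJ/cm2, against 5.02, 6.65, 6.18, 11.3 and 6.79 CPM in sham skin (1.46 ± 0.31, adjusted p = 0.0332). Tnfrsf10b, the death receptor for TRAIL, had 15.3, 10.4, 16.3, 6.48 and 16 CPM at 20 mJ/cm2, against 4.89, 5.29, 5.39, 5.95 and 5.72 CPM in sham skin (1.25 ± 0.27, adjusted p = 0.0364). Both separated the groups, but the lowest 20 mJ/cm2 library was close to the highest sham library, and the calls were lost in 6 (Pmaip1) and 9 (Tnfrsf10b) of the 10 fits without 1 library.

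The other p53 targets were not called. Cdkn1a, the cell cycle inhibitor p21, had 222, 126, 233, 115 and 287 CPM at 20 mJ/cm2, against 126, 107, 130, 86.7 and 151 CPM in sham skin (0.71 ± 0.24, adjusted p = 0.259). Replicates 2 and 4 of the 20 mJ/cm2 group lay within the sham range. Mdm2, the ubiquitin ligase that restrains p53, had 77.3 to 127 CPM at 20 mJ/cm2 and 60.1 to 75.5 CPM in sham skin without overlap, yet was not called (0.61 ± 0.20, adjusted p = 0.233). The number of called targets was 2 without the libraries of high mitochondrial share and 0 to 3 over the fits without 1 library. Zmat3 (0.70 ± 0.17, adjusted p = 0.0762) and Rps27l (0.65 ± 0.17, adjusted p = 0.113) were the next p53 targets by p. Ppm1d, a phosphatase that restrains p53 signalling, had 0.68 ± 0.20 (adjusted p = 0.148). Among further targets known for cell death, Bax had 0.54 ± 0.45 (adjusted p = 0.851), Fas 0.40 ± 0.26 (adjusted p = 0.746) and Bbc3 -0.26 ± 0.55 (adjusted p = 0.983).

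Nucleotide excision repair had no called gene among 30, by edgeR at an adjusted p under 0.05. At an unadjusted p under 0.05 it had 3 genes, all positive, against 1681 of all 18677 genes in either direction. Its median log2 fold change was 0.11. Ddb2, which recognises dimers and is a p53 target in human cells, had 13.6, 16.6, 13.7, 25.6 and 14.2 CPM at 20 mJ/cm2, against 23, 17.2, 20.3, 31.3 and 18.1 CPM in sham skin (-0.40 ± 0.20, adjusted p = 0.573). Gtf2h1, a subunit of the repair and transcription factor TFIIH, had 0.57 ± 0.19 (adjusted p = 0.257), and the endonuclease gene Ercc5 had 0.79 ± 0.29 (adjusted p = 0.359). Immediate early genes had no call among 30 and a median of 0.17. Fos varied widely within both groups, with 25.9 to 921 CPM at 20 mJ/cm2 and 81.3 to 1256 CPM in sham skin, and the AP-1 subunit gene Fosl1 had 1.96 ± 0.66 (adjusted p = 0.264).

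The other genes that rose include several enzymes and transporters. Cyp3a13, a cytochrome P450, had 16.3, 19.5, 17.9, 25.9 and 13.1 CPM at 20 mJ/cm2, against 4.23, 6.52, 5.13, 7.06 and 5 CPM in sham skin, with no overlap and a call in every fit without 1 library (1.73 ± 0.28, adjusted p = 0.00463). Gsto1, a glutathione transferase, had 77.1 to 99.4 CPM and 43.6 to 49.1 CPM in the same order (0.89 ± 0.16, adjusted p = 0.0123). Klk11, an epidermal serine peptidase, had 34.6 to 48.5 CPM and 17.4 to 22.2 CPM (1.02 ± 0.21, adjusted p = 0.0298). The groups lay apart for each of these.

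Slc19a2, a thiamine transporter, had 29.1 to 51.7 CPM at 20 mJ/cm2 and 17 to 22.7 CPM in sham skin (0.98 ± 0.21, adjusted p = 0.0336). Cpox, an enzyme of heme synthesis, had 0.83 ± 0.17 (adjusted p = 0.0332), and Gnl2, a GTPase of ribosome assembly, had 0.56 ± 0.12 (adjusted p = 0.0379), the smallest of the rises. Tnfrsf9, the costimulatory receptor 4-1BB of T cells, had 2.05 to 3.38 CPM at 20 mJ/cm2 and 0.654 to 1.58 CPM in sham skin (1.49 ± 0.31, adjusted p = 0.0332). The rest of the named rises, Teddm3 (1.40 ± 0.30) and Fam180a (1.02 ± 0.23), are genes of less known function.

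Fam220a varied widely between libraries of 1 group. It had 29.6, 22.4, 25.9, 6.15 and 5.79 CPM at 20 mJ/cm2, against 4.76, 4.34, 5.79, 3.53 and 4.1 CPM in sham skin (1.94 ± 0.41, adjusted p = 0.0332). The first 3 of the 20 mJ/cm2 libraries have titles ending in R1_001 and the last 2 in R1. The groups met at their edges. At 24 h it had 4.32, 3.74, 23.4, 3.81 and 19.2 CPM after 20 mJ/cm2, against 4.29, 19.4, 5.05, 3.56 and 3.94 CPM in sham skin, so high values also occurred in a sham library and under both endings. Within R1_001 at 6 h the log2 fold change was 2.37 (adjusted p = 0.00918, edgeR), and within R1, where edgeR called no gene, it was 0.65. In other genes, the log2 fold change within R1_001 and within R1 was 4.13 and 1.10 for Epgn, 2.47 and 1.16 for Sprr1a, 2.95 and 1.76 for Dio2 and 1.95 and 0.70 for Pmaip1, while it was 1.74 and 1.70 for Cyp3a13 and, among the falls, -1.75 and -1.76 for Pard3b. The difference between the endings was not tested. The R1 libraries include replicate 4 of each group, with 13.4% and 13.5% mitochondrial counts, so these values do not separate the ending from that share.

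The genes that fell were long. Gene span, the distance from a gene's start to its end with introns included, had a median of 425 kb among the 51 genes called down, 7.39 kb among the 30 called up and 18.1 kb among all tested genes. Of the genes called down 38 (74.5%) spanned over 300 kb, as did 440 (2.36%) of the 18615 tested genes with a span, and 47 of the 51 spanned over 100 kb. No gene called up did. Within the class over 300 kb, 38 genes (8.64%) were called down and none up. The classes of 100 to 300 kb, 30 to 100 kb, 10 to 30 kb and under 10 kb had 9, 2, 1 and 1 called down, or 0.521%, 0.044%, 0.0185% and 0.0154%.

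The shift extended beyond the called genes. The median log2 fold change at 20 mJ/cm2 was -0.59 over all 440 genes above 300 kb, and 88.9% of these genes had a negative value. It was -0.21 for genes of 100 to 300 kb, 0.02 for 30 to 100 kb, and 0.07 for both 10 to 30 kb and under 10 kb. The difference was also present among genes of like level and like exonic length. Genes above 300 kb had medians of -0.77, -0.73, -0.68 and -0.30 from the lowest to the highest of 4 level classes, against -0.06, -0.03, 0.05 and 0.11 for genes of 100 kb or less. In classes of exonic length of 3 to 6, 6 to 12 and over 12 kb, long genes had medians of -0.61, -0.61 and -0.55, against 0.05, 0.05 and 0.06 for genes of 100 kb or less.

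**Figure D2:**
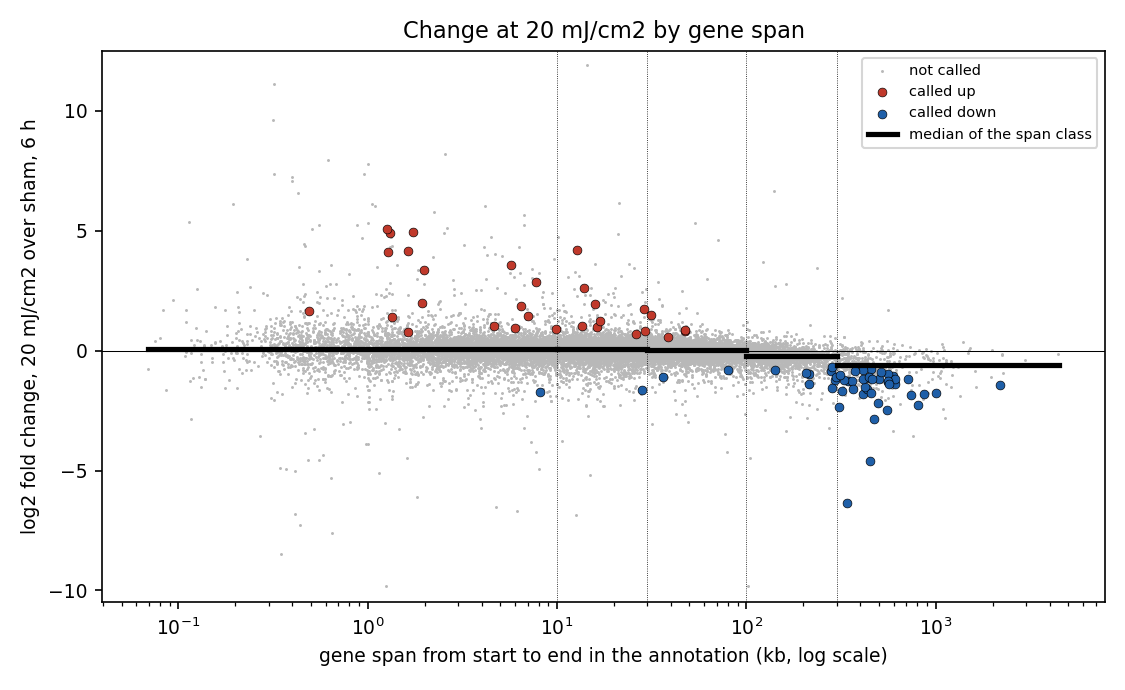
Log2 fold change (20 mJ/cm2 over sham at 6 h, vertical axis) of each tested gene against its span in kb (horizontal axis, log scale), with genes called up in red, genes called down in blue and all others in grey. Black bars are the medians of the 5 span classes, which the dotted lines divide at 10, 30, 100 and 300 kb. The red points lie under 100 kb, and the blue points gather above 300 kb, where the median of all genes is -0.59.

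Each library showed the shift. Relative to the sham mean, the median level of the genes above 300 kb was -0.63, -0.53, -0.58, -0.27 and -0.83 (log2) in the 20 mJ/cm2 libraries, against -0.14, -0.05, -0.03, 0.29 and 0.00 in the sham libraries. The groups did not overlap, and replicate 4, the library of high mitochondrial share, was the highest of its group in both. The genes under 10 kb had -0.18 to 0.28 and -0.19 to 0.10 in the same order, with overlap. The median over the long genes was -0.59 in the libraries ending in R1_001 alone, -0.66 in those ending in R1 alone and -0.63 without the libraries of high mitochondrial share, and it ranged from -0.69 to -0.53 over all alternatives run.

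**Figure D3:**
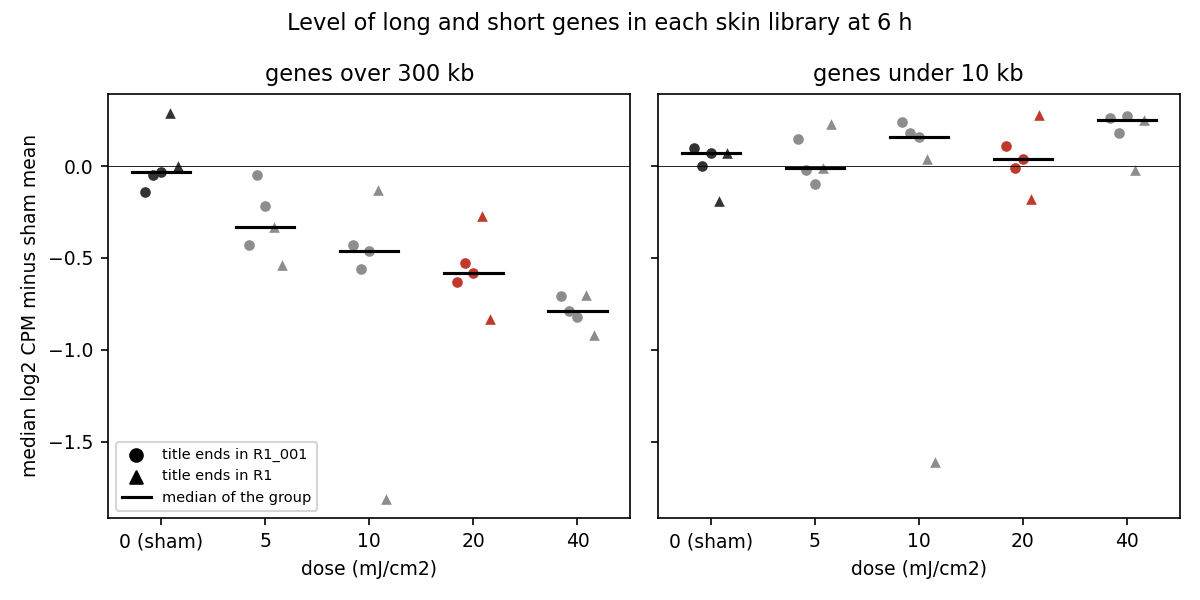
Median level of the genes over 300 kb (left) and under 10 kb (right) in each library at 6 h, as log2 CPM minus the sham mean of the same gene (vertical axis), by dose in mJ/cm2 from sham to 40 (horizontal axis). Circles and triangles mark the 2 title endings, the black bar is the median of a group, and the 20 mJ/cm2 libraries are red. For the long genes the 20 mJ/cm2 libraries lie at -0.83 to -0.27 and the sham libraries at -0.14 to 0.29; the lowest 10 mJ/cm2 point in both panels is the library of 0.18 M counts.

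The named falls cover several functions. Slc24a3, a potassium-dependent sodium and calcium exchanger of 474 kb, had 2.78, 5.11, 1.84, 3.13 and 4.96 CPM at 20 mJ/cm2, against 29.9, 21.2, 36.2, 18.1 and 28.2 CPM in sham skin. Every 20 mJ/cm2 library was far below every sham library (-2.85 ± 0.53, adjusted p = 0.0138). Cacna1e, the pore subunit of R-type calcium channels, had 0.909 to 1.51 CPM and 3.97 to 8.83 CPM in the same order (-2.20 ± 0.50, adjusted p = 0.0497), and its call was lost in all 10 fits without 1 library.

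Basement membrane collagen genes were among the falls. Col4a6, which encodes the collagen IV chain alpha 6 and spans 309 kb of the X chromosome, had 4.23, 5.03, 4.3, 3.78 and 10.3 CPM at 20 mJ/cm2, against 30.5, 25.4, 27.5, 27.2 and 27.3 CPM in sham skin (-2.34 ± 0.37, adjusted p = 0.00407). Col4a5, its neighbour on the same chromosome, had 16 to 21.2 CPM at 20 mJ/cm2 and 33.5 to 44.6 CPM in sham skin (-0.99 ± 0.18, adjusted p = 0.0123). Both sets of values lay apart without overlap, and Col4a6 was called in every fit without 1 library. Col23a1, a transmembrane collagen of 294 kb, had -1.22 ± 0.27 (adjusted p = 0.0379).

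The list of 22 collagens, most of them of the dermis, held no called gene by edgeR, with 2 at an unadjusted p under 0.05, and 21 of 22 values were negative (median -0.34). Col1a1, the main dermal collagen, had 6608 to 9618 CPM at 20 mJ/cm2 and 6039 to 18142 CPM in sham skin (-0.37 ± 0.28, adjusted p = 0.819). Thsd4, an extracellular protein of microfibrils with a span of 555 kb, had 1.85, 1.82, 1.23, 1.08 and 1.41 CPM at 20 mJ/cm2, against 8.46, 7.2, 5.92, 11.2 and 8.97 CPM in sham skin. It was called in every fit without 1 library (-2.49 ± 0.40, adjusted p = 0.00463).

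Of 34 tested adhesion and guidance genes, best known from neurons, 3 were called down, 32 had a negative fold change, and the median was -0.64. These values are near those of all genes above 300 kb (8.64% called down, median -0.59), and the 3 called members span 740 to 2197 kb. Tenm4, a teneurin of 740 kb, had 9.39, 14.6, 13.6, 8.64 and 11.8 CPM at 20 mJ/cm2, against 42, 53.6, 43.3, 28.3 and 43 CPM in sham skin (-1.85 ± 0.37, adjusted p = 0.0275). Adgrl3, the adhesion receptor latrophilin 3, had 0.264 to 1.91 CPM and 3.97 to 7.47 CPM (-2.27 ± 0.47, adjusted p = 0.0332), and Lsamp, an adhesion molecule with the longest span of all called genes at 2197 kb, had 2.15 to 4.43 CPM and 6.31 to 9.87 CPM (-1.43 ± 0.30, adjusted p = 0.0332), 20 mJ/cm2 before sham in each case. None of the 3 overlapped between groups. The count of members called down was 0 without the libraries of high mitochondrial share and 0 to 4 over the fits without 1 library.

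Cdh4, the cell adhesion protein R-cadherin, had 6.08 to 15.3 CPM at 20 mJ/cm2 and 20 to 41.4 CPM in sham skin (-1.76 ± 0.39, adjusted p = 0.0397). Pard3b, a polarity protein of 1003 kb, had 10, 8.58, 8.9, 11.8 and 7.52 CPM at 20 mJ/cm2, against 31.6, 26.3, 33.7, 34.1 and 31.5 CPM in sham skin. With little spread in either group it was called in every fit without 1 library (-1.75 ± 0.25, adjusted p = 0.00143). Magi1, a scaffold of cell junctions, had 6.05 to 10.9 CPM and 19.4 to 21.3 CPM (-1.39 ± 0.29, adjusted p = 0.0332).

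Enzymes and other intracellular proteins followed. Dpyd, which starts the breakdown of pyrimidine bases and spans 871 kb, had 1.65 to 5.03 CPM at 20 mJ/cm2 and 5.39 to 15.2 CPM in sham skin (-1.83 ± 0.37, adjusted p = 0.0326). Bbs9, a subunit of the BBSome of cilia, had 2.64 to 4.3 CPM and 10.7 to 13.6 CPM (-1.82 ± 0.30, adjusted p = 0.00486). Eda, the signal ectodysplasin of hair and gland development, had 2.08 to 7.56 CPM and 9.21 to 16.2 CPM (-1.51 ± 0.31, adjusted p = 0.0328). In all 3 genes the 20 mJ/cm2 libraries lay below the sham libraries.

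Mei4, known for meiotic recombination, had 0 counts in all 5 libraries of 20 mJ/cm2 and 0.327 to 0.95 CPM in the sham libraries. Against a floor of 3 counts over the 20 mJ/cm2 group (0.0582 CPM), its pooled sham level of 0.664 CPM, from 41 counts, makes the 20 mJ/cm2 level at least 11.4-fold lower, as far as counting error goes. Only 4 of the falls spanned under 100 kb. These were Gabrp, the pi subunit of the GABA-A receptor (28.2 kb), Ppfia4, a liprin (36.1 kb), the pseudogene Ppp4r1l-ps (80.3 kb) and the predicted gene Gm7694 (8.13 kb). Gabrp had 1.06 to 4.32 CPM at 20 mJ/cm2 and 5.57 to 9.52 CPM in sham skin (-1.66 ± 0.37, adjusted p = 0.0399), so that a short gene too separated the groups.

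Most other gene lists stayed without a call. Over all genes, 1681 of 18677 had an unadjusted p under 0.05 by edgeR, in either direction. Heat shock genes had a median of 0.29 with 20 of 23 positive, and their summed level of 5268 to 5935 CPM at 20 mJ/cm2 lay above the 4274 to 4873 CPM of sham skin, although no single gene was called and 1 had an unadjusted p under 0.05. The chaperone gene Hsp90aa1 had 0.79 ± 0.26 (adjusted p = 0.249). Cholesterol synthesis genes had a median of 0.28 with 19 of 22 positive, a sum of 2749 to 4172 CPM against 2174 to 2735 CPM in sham skin, no call and 6 genes at an unadjusted p under 0.05; Hmgcs1 had 0.68 ± 0.28 (adjusted p = 0.423). Both sums set the groups apart where the single genes did not pass. This was not particular to these lists. The sums of the p53 targets were also apart, at 3863 to 4365 CPM against 3061 to 3840 CPM in sham skin. Those of the guidance and synaptic adhesion genes were apart downward, at 527 to 845 CPM against 868 to 1052 CPM. The sums of the stressed epidermis list overlapped, at 288 to 1453 CPM against 328 to 442 CPM.

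The 38 epidermal differentiation genes had no call and a median of -0.02, with 3 genes positive and 4 negative at an unadjusted p under 0.05. The late envelope gene Lce1a1 had 4.19 to 13.5 CPM at 20 mJ/cm2 and 8.29 to 30.4 CPM in sham skin (-1.47 ± 0.47, adjusted p = 0.233), and the desmosome gene Dsg1b had 0.85 ± 0.25 (adjusted p = 0.151). Interferon-stimulated, cell cycle, NF-kB feedback, STAT3, Nrf2, unfolded protein, matrix remodelling, clock and TGF-beta family lists had medians between -0.03 and 0.21 and no called member.

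**Figure D4:**
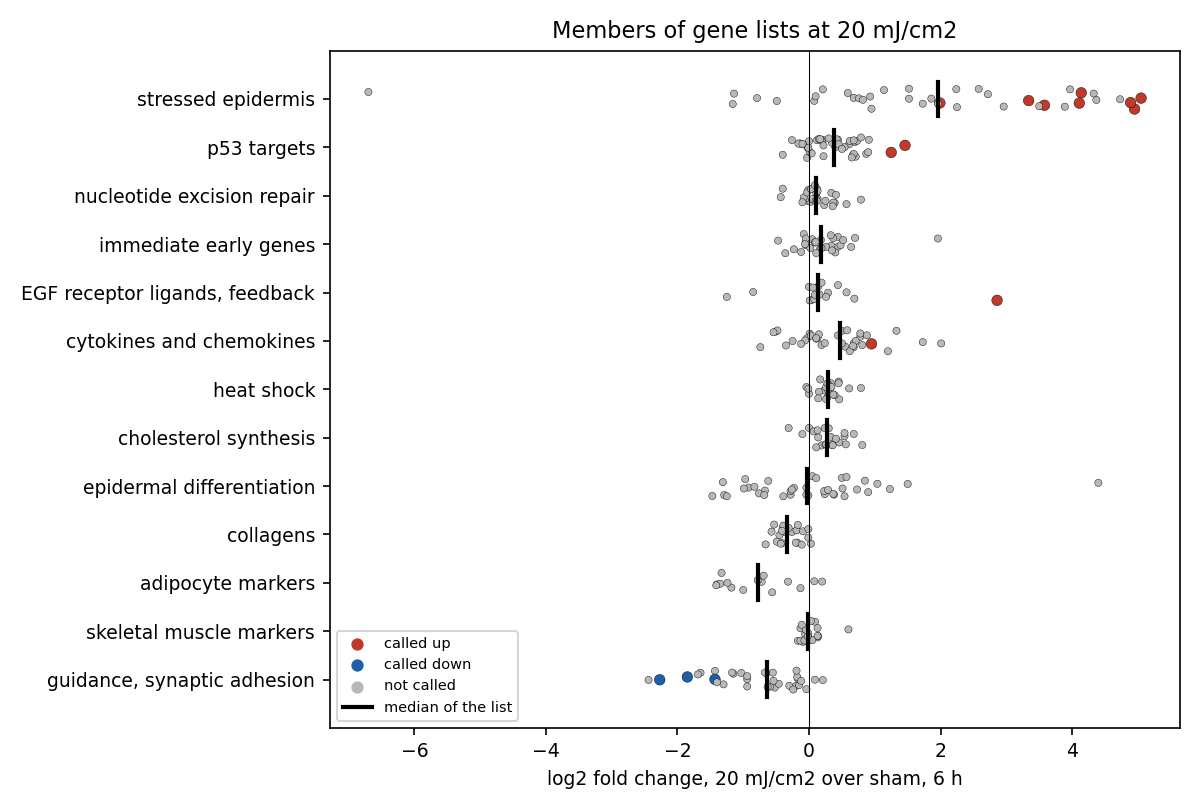
Log2 fold change (20 mJ/cm2 over sham at 6 h, horizontal axis) of the tested members of 13 gene lists, 1 point per gene, with called genes in red (up) or blue (down) and the median of each list as a black bar. The list of stressed epidermis is centred at 1.96, the p53 targets at 0.38, the guidance and synaptic adhesion genes at -0.64, and muscle markers at -0.01.

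Markers of resident and immune cells gave no call in any of 13 lists. Adipocyte markers had the lowest median, -0.78, with 13 of 15 negative. By edgeR 5 of 15 had an unadjusted p under 0.05, all lower at 20 mJ/cm2, against 1681 of all 18677 genes in either direction. Their sums were 1184 to 2715 CPM at 20 mJ/cm2 and 1655 to 3707 CPM in sham skin. Lipe, the hormone-sensitive lipase, had 10.3 to 29 CPM and 11.1 to 115 CPM in the same order. In whole skin, fewer cells of a type and less RNA per cell cannot be told apart, and the part of these markers in the falls was not tested. Neutrophil markers were near the bottom of the scale, with sums of 19.4 to 86.7 CPM at 20 mJ/cm2 and 36 to 83.5 CPM in sham skin, and their markers Ly6g, Mpo, Elane and Ngp were too low to be tested. The T cell, Langerhans cell, macrophage, mast cell, endothelial, fibroblast and keratinocyte lists had medians of -0.16 to 0.11. Skeletal muscle markers had a median of -0.01.

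The response at 20 mJ/cm2 was next set between its neighbours in dose. Against sham, 5 and 10 mJ/cm2 had no called gene by edgeR, with 356 and 1572 genes at an unadjusted p under 0.05, and 40 mJ/cm2 had 914 (4.89%), of which 400 were higher (2.14%) and 514 lower (2.75%). All 4 doses were set against the same 5 sham libraries, so their fold changes are not independent of each other. The 30 genes called up at 20 mJ/cm2 had a median log2 fold change over sham of 0.53 at 5, 0.42 at 10, 1.57 at 20 and 1.83 at 40 mJ/cm2. The 51 genes called down had -0.63, -0.56, -1.27 and -1.40. Being chosen at 20 mJ/cm2, these genes must stand out there. All genes above 300 kb, which were not chosen by the test, had medians of -0.32, -0.38, -0.59 and -0.81 at 5, 10, 20 and 40 mJ/cm2.

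Set directly against 40 mJ/cm2, 20 mJ/cm2 had no called gene by edgeR, with 1008 genes at an unadjusted p under 0.05, and DESeq2 called 32. Sprr2h averaged 14.4 ± 7.32 CPM at 20 mJ/cm2 and 40.6 ± 13.6 CPM at 40 mJ/cm2 (SD, n = 5 each), a log2 difference of -1.51 ± 0.44 (adjusted p = 0.512). The difference was -1.18 ± 0.30 for Pmaip1 (adjusted p = 0.421) and -0.82 ± 0.24 for Cdkn1a (adjusted p = 0.512), with 197 ± 73.7 CPM at 20 and 347 ± 92.3 CPM at 40 mJ/cm2. Among the falls, Tenm4 averaged 11.6 ± 2.60 CPM at 20 and 7.43 ± 4.13 CPM at 40 mJ/cm2 (0.67 ± 0.37, adjusted p = 0.879), and Col4a6 5.53 ± 2.72 and 6.20 ± 3.61 CPM (-0.16 ± 0.37, adjusted p = 0.932). Fam220a ran the other way from the envelope genes, with 18 ± 11.3 CPM at 20 and 5.19 ± 1.18 CPM at 40 mJ/cm2 (1.70 ± 0.41, adjusted p = 0.333).

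Set against 10 mJ/cm2, 1 gene was called (0.00535% of those tested). Dio2 averaged 47.4 ± 18.7 CPM at 20 mJ/cm2 and 10.1 ± 3.77 CPM at 10 mJ/cm2 (2.42 ± 0.38, adjusted p = 0.0263), while 2669 genes had an unadjusted p under 0.05. At the other doses Dio2 averaged 8.05 ± 2.83 CPM in sham skin, 10.1 ± 4.55 at 5 mJ/cm2 and 88.7 ± 39.6 at 40 mJ/cm2. The call was lost in each fit without 1 of replicates 1 to 3 of the 20 mJ/cm2 group or replicates 1 to 4 of the 10 mJ/cm2 group. Sprr2h had a difference of 3.05 ± 0.55 and Pmaip1 of 1.81 (adjusted p = 0.0823 for both). Without the library of 0.18 M counts 2 genes were called.

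**Figure D5:**
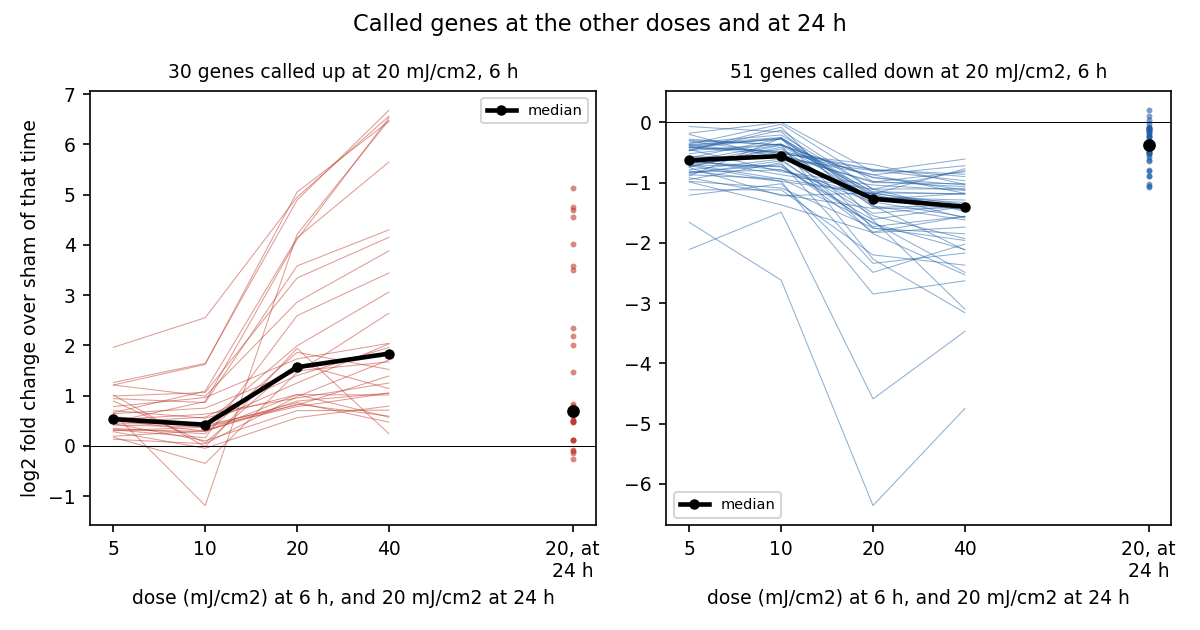
Log2 fold change over sham of the same time (vertical axis) of the 30 genes called up (left) and the 51 called down (right) at 20 mJ/cm2 and 6 h, at 4 doses in mJ/cm2 at 6 h and at 20 mJ/cm2 at 24 h (horizontal axis). Thin lines and small points are single genes, and black marks are medians. The medians at 20 mJ/cm2 are 1.57 and -1.27 at 6 h, where the genes were chosen, and 0.69 and -0.37 at 24 h, in other animals.

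Animals taken 24 h after 20 mJ/cm2, with sham animals of their own time, gave a separate measure of the same genes. Of the 30 genes called up at 6 h, 26 had a positive fold change at 24 h, 6 were called up (background 0.214% of all genes), and the median was 0.69. These 6 were Sprr2h, Sprr1b, Sprr1a, Sprr2g, Teddm3 and Gsto1. Sprr1a had 26.7, 43.2, 43.2, 102 and 29.2 CPM at 24 h after 20 mJ/cm2, against 7.06, 13.4, 10.6, 10.9 and 17.6 CPM in sham skin of 24 h (2.00 ± 0.46, adjusted p = 0.0404). Krt6b, short of the threshold at 6 h, was called at 24 h with 6.15 to 121 CPM after 20 mJ/cm2 and 0.0842 to 1.96 CPM in sham skin (5.53 ± 0.98, adjusted p = 0.00611). Dio2 had 7.45 to 11.5 CPM and 4.67 to 10.5 CPM in the same order (0.47 ± 0.33, adjusted p = 0.844), which overlap, and the change of its effect between the times did not pass the test of the interaction (-2.09 ± 0.47, adjusted p = 0.188).

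Of the 51 genes called down at 6 h, 48 had a negative fold change at 24 h, none was called down (background 0.0268%), 17 had an unadjusted p under 0.05, and the median was -0.37. The genes above 300 kb as a whole had a median of -0.36 at 24 h. Tenm4 had 42.1 to 54.2 CPM at 24 h after 20 mJ/cm2 and 43.3 to 56.8 CPM in sham skin of that time, which overlap.

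The difference between the effect at 24 h and that at 6 h was tested as an interaction, which called 1 gene (0.00535% of those tested), with 981 at an unadjusted p under 0.05. Sh3gl2, the endocytic protein endophilin A1 of 434 kb, had 2.12, 4.59, 2.45, 1.84 and 3.89 CPM at 6 h after 20 mJ/cm2, against 7.67, 8.15, 10.5, 9.87 and 10.2 CPM in sham skin of 6 h (-1.62 ± 0.28, adjusted p = 0.00834). At 24 h it had 11.7, 11.2, 9.77, 9.58 and 10.8 CPM after 20 mJ/cm2, against 9.15, 9.77, 7.16, 9.12 and 11.1 CPM in sham skin. The groups lay apart at 6 h and overlapped at 24 h, and the effect was 1.82 ± 0.34 higher at 24 h (log2, adjusted p = 0.0452). The call was lost in 17 of 20 fits without 1 library, all but those without replicate 2 or 5 of the 20 mJ/cm2 group at 6 h or replicate 3 at 24 h, and DESeq2 called 20 genes.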

How the data were processed

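The genes described and their lists were chosen with earlier results of these data known. The deposited table gives expected counts for each gene in the 145 libraries, and 12.6% of its values are not whole numbers. Per the submitters' processing notes, fastp 0.23.0, STAR 2.7.10a and the build GRCm39 were used. The counting program, its annotation and its use of strand: not given in the sources used here. Overlapping genes and close copies are therefore uncertain. Of 55416 identifiers, 52083 received a symbol and span from GENCODE vM21 (GRCm38), and the others held 0.0906% of the counts.

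These were rounded to integers. The test was edgeR's quasi-likelihood F test (edgeR 4.0.16 under R 4.3.3, TMM factors, Benjamini-Hochberg adjustment over the 18677 genes that filterByExpr kept). All 25 libraries at 6 h were fitted together, or 50 at 6 and 24 h for the values at 24 h and the interaction, with the title ending, whose meaning is not given, as a covariate. SE is the size of the fold change over the root of F. DESeq2 1.42.0 was an alternative. On data simulated for 20 mJ/cm2 against sham, with 18677 genes, the test recovered 41% of 2-fold and 88% of 4-fold changes (100 each), with 6 false calls. The changed genes were drawn only from better expressed genes, so recovery at low levels was not measured. No difference between the title endings was simulated.

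Named by rule were the 15 largest rises and 12 largest falls among called genes whose average log2 CPM reached 1 and whose sign held in all 10 fits without 1 library (no predicted genes), up to 4 called members of a list or up to 2 others, and 8 genes in any case. Of these falls, 1 is not reported here. Other called genes, further list members and the promoters shown were picked after their values were seen. The floor given for Mei4 covers counting error only.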

Additional observations from a re-analysis of the deposited data

Results flagged for a closer look

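Of 70 groups of 5 values checked for 1 library far from the rest, 7 had one. The cut-off used is passed by about 1 in 20 groups of independent, normally distributed values. These groups share the same libraries, and all 7 stray values were the highest of their group, so that rate may not hold here. Rptn had 45.5 CPM in replicate 2 of the 20 mJ/cm2 group, against 3.04 to 10.3 CPM in the other 4. Col4a6 had 10.3 CPM in replicate 5 of the 20 mJ/cm2 group, against 3.78 to 5.03 CPM in the others, and Cdh4 had 15.3 CPM in the same library, against 6.08 to 8.15 CPM. Ddb2 had 25.6 CPM in replicate 4 of the 20 mJ/cm2 group, against 13.6 to 16.6 CPM. Sham replicate 4 was the highest of its group for Pmaip1 (11.3 CPM, the others 5.02 to 6.79), Mdm2 (75.5 CPM, the others 60.1 to 64.5) and Krt6b (13.4 CPM, the others 1.54 to 4.76). Replicate 4 of both groups is the library with the high mitochondrial share, and its part in these values was not tested.

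The effect of 20 mJ/cm2 on Sh3gl2 differed between 24 h and 6 h by 1.82 (log2) in a test of the interaction.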

How the results depend on the processing

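The 81 called genes, chosen for their difference in these libraries, kept their direction under the alternatives in which they could be tested, but the number of called genes was 238 with the muscle level and 312 with the mitochondrial share as covariate, 138 without libraries under 1 M counts, 167 in 1 fit of all 145 libraries, 341 with DESeq2, 29 in the 10 libraries alone, 50 and 0 within the title endings R1_001 and R1, 44 without libraries above 10% mitochondrial share, and 20 to 98 without 1 library. With RLE factors, a stricter filter, no title ending term or the hair level as covariate it was 84 to 90, with 73 to 80 of the 81 among them. No filter gave 101, with 51 of the 81 among them. The 29 in the 10 libraries alone held 23 of the 81, the 50 within R1_001 held 34, and the 167 in the fit of all libraries held 66. The fits without 1 library held 20 to 63 of the 81. The cause of these differences was not tested. For 20 against 40 mJ/cm2 the count of 0 became 22 with no filter, 7 in the fit of all libraries and 32 with DESeq2. For 20 against 10 mJ/cm2 the count of 1 became 77 with no filter, 3 and 2 with the muscle and mitochondrial covariates, 2 without libraries under 1 M counts, 78 in the fit of all libraries, 180 with DESeq2 and 0 to 2 without 1 library. For the interaction the count of 1 became 0 with no filter, 9, 2 and 3 with the muscle, hair and mitochondrial covariates, 0 without libraries under 1 M counts, 8 in the fit of all libraries, 20 with DESeq2 and 0 to 2 without 1 library.

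Of 2592 pairs of a named gene and an alternative, 2330 kept their side of the threshold, 224 lost and 27 gained a call, and 11 changed sign, none of them in a called gene. Leaving out 1 library gave Fos values of -1.19 to 0.30, mt-Nd3 of -0.88 (without 20 mJ/cm2 replicate 4) to 1.58, Casq1 of -0.26 to 0.01, Ms4a2 of -0.78 to 0.05, and a median of genes under 10 kb of -0.05 (without 20 mJ/cm2 replicate 5) to 0.11. In libraries ending in R1_001 alone the sign changed for Fos (0.32) and mt-Nd3 (-0.27), and in those ending in R1 alone for Il6 (-0.05), Ptgs2 (-0.42), Itgb1 (-0.06) and Casq1 (0.15). Without libraries of high mitochondrial share mt-Nd3 had -0.31. The median of genes under 10 kb was -0.06 in R1_001 alone. No paired analysis was possible because each animal has its own number in the titles, so that replicate numbers follow the order of accession and pair no libraries. On simulated data 41% of 2-fold changes in better expressed genes were called, so many changes of that size would be missed at this depth and number of animals.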
